A study of Homo sapiens with 6 samples.

Results

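Proteoglycan core protein genes were followed through a TGF-β1 dose series in 2 human lung epithelial cell lines. The 10 genes were BGN, DCN, LUM, VCAN, HSPG2, SDC1, SDC2, SDC4, GPC1 and SPOCK1. They were taken by symbol alone, and each matched exactly 1 of the 25737 entries in the count tables. A549 cells are a lung adenocarcinoma line, and BEAS-2B cells are bronchial epithelium immortalized with viral genes. Both lines were wild type and were either left untreated (0 ng/mL) or exposed for 48 h to TGF-β1 at 1 or 5 ng/mL, in order to model fibrosis in culture. Each of the 6 conditions was covered by 1 library of 3′-mRNA sequencing, in which reads come from the end of each transcript. Per the labels, TGF-β1 was given in a medium with less serum than the growth medium, and the medium of the untreated cells during that time is not stated, so serum and TGF-β1 cannot be told apart here.

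A proteoglycan is a core protein that carries glycosaminoglycan chains, the long sulfated sugar polymers heparan sulfate, chondroitin sulfate or dermatan sulfate. Secreted proteoglycans fill and organize the extracellular matrix (ECM) between cells, whereas syndecans and glypicans stay on the cell surface, where their heparan sulfate binds growth factors and matrix proteins. Biglycan, decorin and lumican are small leucine-rich proteoglycans that bind collagen fibrils, and decorin and biglycan also bind TGF-β. In fibrotic lung, matrix proteoglycans such as versican and biglycan are known to accumulate together with collagen.

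The libraries held 4120624 to 7841350 counts. With 1 library per condition there was no replicate, so the doses were not tested within a line. Each fold change (FC) is a ratio of TMM-normalized counts with an exact 95% interval, which covers counting error only and not the variation between cultures. A differentially expressed gene (DEG) has an FC of 2 or more, up or down, and an ND (normalized data) value of at least 7, which are the limits the study used. A pseudocount of 1 in the FC, and a minimum level that only one of the compared libraries must reach, were set for this work. The ND value is the log2 of the normalized count plus 1. An ND value of 7 is a normalized count of 127. Where 3 values are listed for a line, they stand in the order 0, 1 and 5 ng/mL. The words rose and fell are used below only for DEGs. In cultured cells, fewer cells of one kind and less RNA per cell cannot be told apart.

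The marker genes of the cell lines were checked first. The A549 markers AKR1B10, AKR1C2, ALDH1A1 and ALDH3A1 summed to 1442 to 9898 CPM, the count scaled to a common library total, in the A549 libraries and to at most 1.18 CPM in the BEAS-2B libraries. In A549 cells they were themselves lower after TGF-β1, with 9898, 2839 and 1442 CPM, and all 4 were lower DEGs at 5 ng/mL (median log2 FC −5.08). Their part in the A549 results was not tested. Of the 6 epithelial markers, EPCAM was at 0 counts in all 3 BEAS-2B libraries and CDH1 at 0 to 2 counts, while the keratin genes KRT7, KRT8 and KRT18 were detected in all libraries. The A549 libraries held 640, 30 and 8 counts of CDH1. The epithelial markers did not change in 1 direction. At 5 ng/mL CDH1 and KRT8 were lower DEGs in A549 cells, and KRT7 was a higher DEG in both lines. CDH1 reached the minimum level only when untreated. The normalized count of KRT7 was 4024, 14155 and 17495 in A549 and 1186, 3337 and 2916 in BEAS-2B cells. Of the 8 fibroblast markers, 4 in untreated A549 cells, 1 at 1 ng/mL and 2 at 5 ng/mL were at 0, and their summed level was 39.8, 85.4 and 82.1 CPM. In BEAS-2B cells the fibroblast sum was 450 to 650 CPM, carried by THY1 (1160 to 1410 counts), FBLN1 and PDGFRB, with 3 or 4 of the 8 at 0. The endothelial marker CDH5 was at 0 in every library, and the leukocyte marker PTPRC had at most 4 counts.

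Secreted and cell-surface core protein genes rose together in A549 cells, whereas in BEAS-2B cells secreted BGN, VCAN and SPOCK1 rose and the surface genes SDC1 and SDC4 went in opposite directions. Of the 10 genes, 7 reached the minimum level in at least 1 library, and DCN, LUM and SDC2 reached it in none. In A549 cells at 5 ng/mL, VCAN, HSPG2, SDC1, SDC4 and SPOCK1 rose and none fell, of 6 genes at the minimum level. The reads of HSPG2 cannot be told apart from those of LDLRAD2, as described below with its values. Across all genes at that level, 16.1% were higher and 17.1% lower. In BEAS-2B cells at 5 ng/mL, BGN, VCAN, SDC1 and SPOCK1 rose and SDC4 fell, of 7 genes. The background there was 7.33% higher and 11.6% lower. SDC1 lay close to the limit in BEAS-2B cells: with total counts as scaling its FC was 1.99 at 5 and 1.94 at 1 ng/mL, above 1 but no longer a DEG. The median log2 FC of the core protein genes at the minimum level was 1.43 in A549 and 1.12 in BEAS-2B cells, against 0.11 and 0.03 over all genes tested. SPOCK1 in A549 cells and BGN and VCAN in BEAS-2B cells reached the minimum level only in treated cells, so their counts and this median describe the genes and do not support a direction.

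At 1 ng/mL the same 5 genes were DEGs in BEAS-2B cells, with BGN, VCAN, SDC1 and SPOCK1 up and SDC4 down, against a background of 5.66% higher and 9.13% lower. In A549 cells only HSPG2 (or LDLRAD2) and SPOCK1 rose at 1 ng/mL, against 10.9% higher and 12.6% lower over all genes. VCAN with an FC of 1.98 (interval 1.89–2.07) and SDC4 with 1.94 (1.67–2.26) lay just under the limit there. The median log2 FC was 0.97 in A549 and 1.08 in BEAS-2B cells at this dose, against 0.09 and 0.01 over all genes tested. The comparisons at 1 and 5 ng/mL share the untreated library of their line, so they are not independent of each other.

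The dose was also tested over both lines at once, in a fit chosen after the values were seen. In this fit cell line is a block, 6 libraries leave 2 residual degrees of freedom, and the difference in response between the lines counts as error. By edgeR's quasi-likelihood test with Benjamini-Hochberg adjustment over 8159 entries, 3 of the 7 core protein genes at the minimum level were higher at 5 ng/mL, against 5.44% higher and 8.3% lower over all entries. They were BGN (adjusted p = 0.012), SPOCK1 (adjusted p = 0.013) and SDC1 (adjusted p = 0.034). VCAN missed the 0.05 threshold of this edgeR fit (adjusted p = 0.066), although it was higher in both lines. At 1 ng/mL, BGN (adjusted p = 0.020) and SPOCK1 (adjusted p = 0.036) passed in edgeR, against 1.24% higher and 1.75% lower. The BGN result rests mainly on BEAS-2B cells, since its A549 libraries held at most 21 counts. BGN also reached the minimum level, and so entered this fit, only through the treated BEAS-2B libraries. It could therefore be counted as higher only, and its adjusted p-values do not support a direction. SDC4, HSPG2 (shared with LDLRAD2) and GPC1, whose responses differed in direction between the lines, had edgeR adjusted p-values of 0.56 to 0.95 over both doses.

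**Figure D1:**
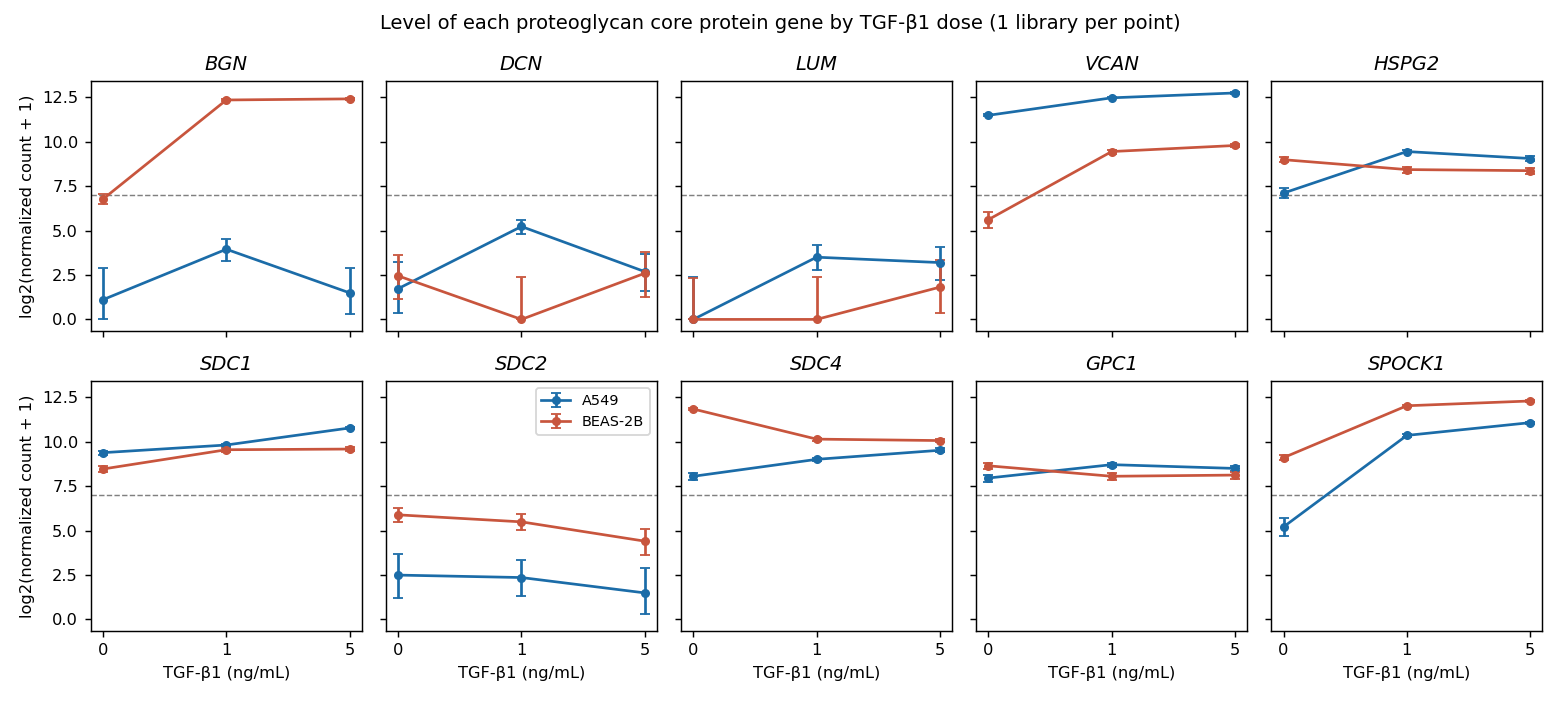
Each panel plots the ND value, log2(normalized count + 1), of 1 gene against TGF-β1 dose in ng/mL (doses evenly spaced, not to scale), in blue for A549 and red for BEAS-2B cells. Points are single libraries, error bars the exact 95% counting interval, and the dashed line the ND minimum of 7; DCN, LUM and SDC2 stay below it in all 6 libraries, while the SDC4 lines of the 2 cell lines converge from 264 and 3652 normalized counts at 0 ng/mL to 730.4 and 1067 at 5 ng/mL.

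BGN encodes biglycan, a small leucine-rich proteoglycan with chondroitin or dermatan sulfate chains. It lies on the plus strand of GRCh38 at chrX:153494939-153509554 (ENSG00000182492). In BEAS-2B cells its normalized count was 108 at 0, 5188 at 1 and 5416 at 5 ng/mL. Nearly the whole difference was therefore present at 1 ng/mL, with an FC of 48.0 (39.2–59.3), and the step from 1 to 5 ng/mL had an FC of 1.04 (1.00–1.09). In A549 cells BGN had 1, 21 and 2 counts, far below the minimum level, and the FC was 12.5 (2.0–515) at 1 ng/mL and 1.57 (0.0815–92.4) at 5 ng/mL. The A549 library at 1 ng/mL was thus above the untreated one beyond counting error, and at 5 ng/mL the level was 0.126 (0.0143–0.515) of that at 1 ng/mL. The size of the A549 response of BGN was poorly determined at this depth. At 5 ng/mL its difference from the BEAS-2B response has an interval that holds 1 (ratio of the FC values 0.0313, 0.00162–1.87). BGN overlaps the 5′ part of HAUS7 on the other strand, which had 516, 537 and 541 counts in the same BEAS-2B libraries.

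DCN encodes decorin, which binds collagen fibrils and TGF-β, and LUM encodes lumican, a keratan sulfate proteoglycan of the same family. They are neighbors on the minus strand of chromosome 12, with 28652 bases between LUM (chr12:91102629-91111831) and DCN (chr12:91140484-91183123). DCN had 2, 53 and 6 counts in A549 cells and 4, 0 and 4 in BEAS-2B cells. LUM had 0, 15 and 9 counts in A549 and 0, 0 and 2 in BEAS-2B cells. Both genes were thus highest in the A549 library at 1 ng/mL, and neither increased further at 5 ng/mL. The FC of DCN was 15.7 (4.14–133) at 1 ng/mL and 2.35 (0.420–23.8) at 5 ng/mL. With 3 counts set in place of the untreated 0, LUM was 2.96-fold higher at 1 ng/mL and 2.35-fold higher at 5 ng/mL. The exact intervals of the LUM ratios against the count of 0 begin lower, at 2.13 and 1.55. Of the 8 fibroblast markers, 5 had their highest normalized count in the same A549 library at 1 ng/mL. Among them were COL6A3 with 0, 51 and 9, THY1 with 4, 25 and 9 and PI16 with 0, 1 and 0 counts. The share of all genes that were highest in that library was not determined. TCF21 (4, 2 and 0 counts), DPT (0, 0 and 1) and FBLN1 (normalized counts of 173, 382 and 432) did not, and the summed level of the list given above was similar at 1 and 5 ng/mL. The library at 1 ng/mL was also the deepest, and 65.6% of its entries were above 0 counts, against 63.4% at 0 and 62.0% at 5 ng/mL. The part of these markers in the DCN, LUM and BGN counts was not tested.

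VCAN encodes versican, a large chondroitin sulfate proteoglycan that binds hyaluronan in the provisional matrix. It lies on the plus strand at chr5:83471465-83582303 (ENSG00000038427). Its normalized count was 2852, 5644 and 6820 in A549 cells and 48.0, 694 and 879 in BEAS-2B cells. Every A549 library was above every BEAS-2B library, and within each line the level was higher at each dose step, by 1.21 (1.17–1.25) from 1 to 5 ng/mL in A549 and 1.27 (1.13–1.41) in BEAS-2B cells. The response against untreated cells at 5 ng/mL was 7.67 times larger in BEAS-2B than in A549 cells (5.61–10.7), and the untreated levels differed by 59.5 (44.0–82.4) in the opposite sense. After 5 ng/mL, A549 cells still had 7.76 times as much VCAN (7.18–8.39). An antisense transcript, VCAN-AS1, is annotated within the gene, is no entry in these tables, and shares 453 exon bases with it.

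SPOCK1 encodes testican-1, a secreted proteoglycan that carries both heparan and chondroitin sulfate chains. It lies on the minus strand at chr5:136975298-137598379 (ENSG00000152377). In A549 cells its normalized count was 35.9 at 0, 1304 at 1 and 2145 at 5 ng/mL, and in BEAS-2B cells 548, 4145 and 4994. SPOCK1 was the only one of the 10 genes that rose at both doses in both lines. At 5 ng/mL its FC was 59.7 (42.0–88.1) in A549 and 9.12 (8.30–10.0) in BEAS-2B cells, and the A549 response was 6.55 times the BEAS-2B response (4.53–9.78). The untreated level was 15.2 times higher in BEAS-2B than in A549 cells (10.6–22.7), and this gap was 2.33 (2.21–2.45) at 5 ng/mL. VCAN and SPOCK1 thus showed mirrored patterns, in that the line with the lower untreated level had the larger FC for each gene. At 5 ng/mL this also held for HSPG2 (shared with LDLRAD2), SDC4 and GPC1. It did not hold for SDC1, or for BGN with its few A549 counts. The untreated count is the denominator of each FC, so a low untreated level and a large FC are linked by construction.

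HSPG2 encodes perlecan, the large heparan sulfate proteoglycan of basement membranes. Its gene lies on the minus strand at chr1:21822245-21937297 (ENSG00000142798), and its 3′ end lies inside LDLRAD2, a gene on the plus strand at chr1:21812265-21825221, with 2121 shared exon bases. HSPG2 had 118, 1010 and 583 counts in A549 cells and 453, 305 and 261 in BEAS-2B cells, and LDLRAD2 had 114, 1002 and 582 and 453, 304 and 261. The counts of the 2 genes were nearly the same in all 6 libraries, so reads of HSPG2 and LDLRAD2 cannot be told apart, and every HSPG2 value given here belongs to the pair. The normalized HSPG2 count was 137, 694 and 529 in A549 cells and 505, 343 and 329 in BEAS-2B cells. In A549 cells HSPG2, or LDLRAD2, rose by an FC of 5.08 (4.19–6.19) at 1 ng/mL and 3.87 (3.17–4.76) at 5 ng/mL. In BEAS-2B cells the FC was 0.679 (0.586–0.787) and 0.651 (0.557–0.759), below 1 but short of a DEG. The 2 responses at 5 ng/mL differed by a factor of 5.95 (4.60–7.70).

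**Figure D2:**
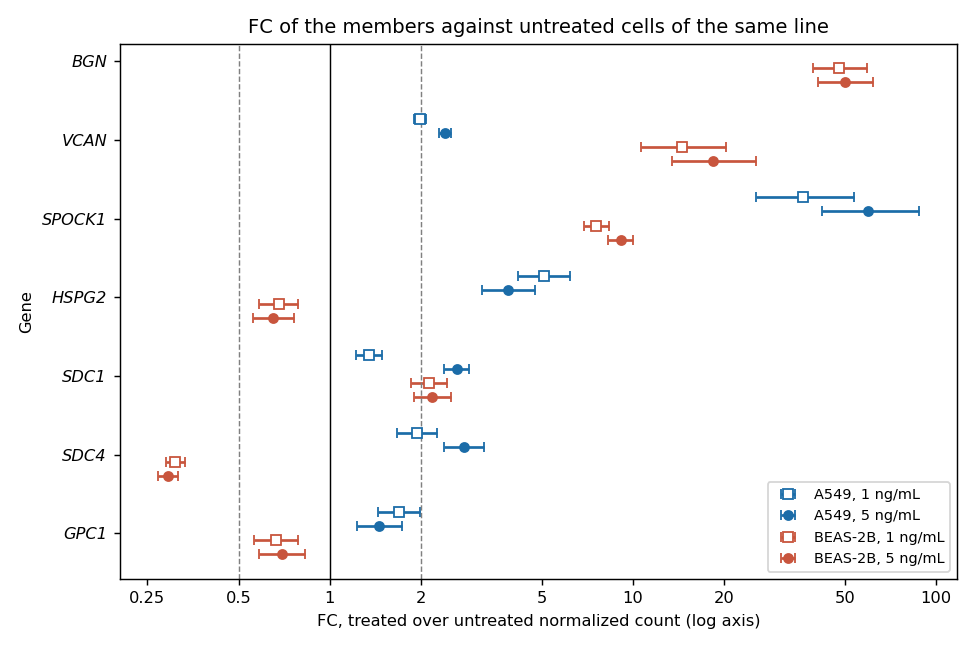
The horizontal log axis gives the FC of normalized counts against untreated cells of the same line for the 7 genes at the minimum level, with A549 in blue, BEAS-2B in red, open squares for 1 ng/mL and filled circles for 5 ng/mL. Bars are exact 95% counting intervals and dashed lines mark an FC of 0.5 and 2. HSPG2 (shared with LDLRAD2), SDC4 and GPC1 lie right of 1 in A549 and left of 1 in BEAS-2B cells, and BGN is drawn only for BEAS-2B cells because it did not reach the minimum level in A549 cells.

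Among the cell-surface core proteins, SDC1 rose at 5 ng/mL in both lines while SDC4 went in opposite directions. SDC1 encodes syndecan-1, the syndecan typical of epithelial cells, and lies on the minus strand at chr2:20200797-20225433 (ENSG00000115884). Its normalized count was 665, 897 and 1744 in A549 cells and 351, 746 and 766 in BEAS-2B cells. In BEAS-2B cells the FC was 2.12 (1.85–2.44) at 1 ng/mL and 2.18 (1.90–2.51) at 5 ng/mL, with no detectable step between the doses (1.03, 0.918–1.15). In A549 cells the FC was 1.35 (1.22–1.49) at 1 ng/mL and 2.62 (2.39–2.88) at 5 ng/mL, with a step of 1.94 (1.81–2.09) between them. The ratio of the A549 to the BEAS-2B response was accordingly below 1 at 1 ng/mL (0.635, 0.536–0.753) and just above 1 at 5 ng/mL (1.20, 1.02–1.42). Responses at 5 ng/mL differed beyond counting error for 6 core protein genes, but for 5 with DESeq2 size factors, total counts or upper quartile factors. The share of all genes that differ in this way was not determined, so the count only describes the core protein genes. Of these 6 genes SDC1 had the interval nearest to 1, so its difference at 5 ng/mL is not firm.

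SDC4 encodes syndecan-4, a widely expressed syndecan found at focal adhesions. It lies on the minus strand at chr20:45325288-45348424 (ENSG00000124145). Its normalized count was 264, 513 and 730.4 in A549 cells and 3652, 1129 and 1067 in BEAS-2B cells. All 3 BEAS-2B libraries lay above all 3 A549 libraries. In A549 cells SDC4 rose by an FC of 2.76 (2.38–3.22) at 5 ng/mL, whereas in BEAS-2B cells it fell to 0.309 (0.288–0.332) of the untreated level at 1 ng/mL and to 0.292 (0.271–0.315) at 5 ng/mL. The responses at 5 ng/mL differed by a factor of 9.46 (8.0–11.2), and the gap between the lines was 13.8-fold (12.1–15.9) before and 1.46-fold (1.32–1.61) after 5 ng/mL TGF-β1.

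The balance of the 2 syndecans was also read within each library, where it does not depend on scaling. This share was chosen after the values were seen. SDC4 made up 28.4% (25.3–31.7), 36.4% (34.3–38.5) and 29.5% (27.8–31.3) of the summed SDC1 and SDC4 counts in A549 cells. In BEAS-2B cells it made up 91.2% (90.2–92.1), 60.2% (57.8–62.6) and 58.2% (55.6–60.8). The share was therefore lower in both treated BEAS-2B libraries than in the untreated one, and in A549 cells at 5 ng/mL its interval overlapped that of untreated cells.

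**Figure D3:**
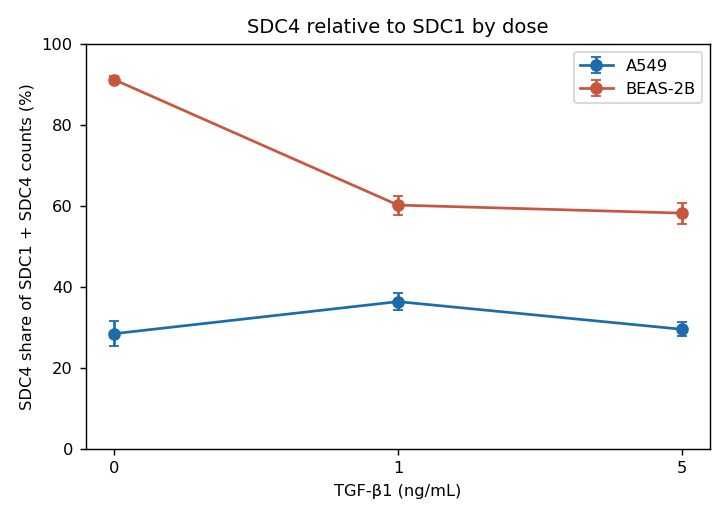
The vertical axis gives SDC4 as a percentage of SDC1 plus SDC4 raw counts in each library and the horizontal axis the TGF-β1 dose in ng/mL (evenly spaced), with A549 in blue and BEAS-2B in red. Points are single libraries with exact 95% binomial intervals, and the BEAS-2B points run from 91.2% to 58.2% while the A549 points stay between 28.4% and 36.4%.

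GPC1 encodes glypican-1, which is tied to the membrane by a lipid anchor and carries heparan sulfate. It lies on the plus strand at chr2:240435671-240468078 (ENSG00000063660). Its normalized count was 247, 416 and 359 in A549 cells and 398, 264 and 277 in BEAS-2B cells. GPC1 was a DEG in neither line, with an FC at 5 ng/mL of 1.46 (1.23–1.73) in A549 and 0.696 (0.586–0.826) in BEAS-2B cells. The ratio of the 2 responses was 2.09 (1.64–2.67). The order of the levels was loose, since the intervals of neighboring conditions held 1 at 4 of the 5 steps. Among these steps, only that between A549 and BEAS-2B cells at 5 ng/mL was beyond counting error (1.30, 1.10–1.54).

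SDC2 encodes syndecan-2, the syndecan typical of mesenchymal cells. It had 4, 6 and 2 counts in A549 cells and 52, 39 and 16 in BEAS-2B cells. It was below the minimum level throughout, and each BEAS-2B library held more than each A549 library. At 5 ng/mL in BEAS-2B cells the ratio was 0.347 (0.185–0.618), and in A549 cells it was 0.391 with an interval from 0.0354 to 2.73, so no change was detectable at this depth in A549 cells.

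The 250 bases upstream of the transcription start were taken from RefSeq (GRCh38.p14) for the 6 of 10 genes with an entry: BGN, VCAN, HSPG2, SDC1, SDC4 and GPC1. In the windows of VCAN and of the second SDC1 start site, 0 bases lie ahead of the first exon annotated in GENCODE. These windows are thus upstream of the RefSeq start but inside the gene as annotated there. The 2 stretches below are shown because, in BEAS-2B cells, BGN had the largest FC and SDC4 was the only gene that fell. They hold the bases ahead of the first annotated exon, 209 for BGN (chrX:153494730-153494938, plus strand) and 250 for SDC4 (chr20:45348425-45348674, minus strand), and capitals mark the GC box GGCGGG or its reverse complement CCCGCC.
BGN: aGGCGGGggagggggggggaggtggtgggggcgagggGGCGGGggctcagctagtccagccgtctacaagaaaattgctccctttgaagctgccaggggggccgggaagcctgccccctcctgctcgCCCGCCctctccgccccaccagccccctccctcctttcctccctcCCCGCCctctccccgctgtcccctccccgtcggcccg
SDC4: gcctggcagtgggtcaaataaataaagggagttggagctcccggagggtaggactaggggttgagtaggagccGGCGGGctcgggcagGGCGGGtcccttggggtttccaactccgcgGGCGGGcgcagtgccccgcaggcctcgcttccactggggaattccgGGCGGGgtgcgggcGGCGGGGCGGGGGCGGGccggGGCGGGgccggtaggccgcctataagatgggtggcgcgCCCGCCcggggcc
In these stretches the GC box letters occurred 4 times for BGN and 9 times for SDC4, with overlapping matches counted. Over the full 250 bases they occurred 7 times for BGN, 9 times for SDC4, 7 times for GPC1, 6 times for HSPG2, 2 times ahead of the first of 2 start sites of SDC1 and 1 time ahead of the other, and 0 times for VCAN, and 42.5% of 35116 promoters of that length held at least 1. The 4 letters GTCT or AGAC, the core of the SMAD-binding element, occurred 2 times for BGN, at 189 and 6 bases ahead of the start, the latter outside the stretch printed, 1 time for VCAN, 56 bases ahead, 1 time for HSPG2, and 2 times and 1 time for the 2 start sites of SDC1. They were absent from this window of SDC4 and GPC1. Since 77.5% of all promoters held these 4 letters, a match is a description of the sequence and not a binding site.

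Untreated A549 and BEAS-2B cells differed in 4 of the 6 core protein genes at the minimum level. VCAN was higher in A549 cells, while SDC4, SPOCK1 and HSPG2 (shared with LDLRAD2) were lower, against 18.1% of all genes higher and 18.9% lower. At 1 ng/mL, VCAN and HSPG2 (shared with LDLRAD2) were higher and BGN, SDC4 and SPOCK1 lower in A549 than in BEAS-2B cells, against 15.3% and 12.9%. The HSPG2 call at this dose was lost with DESeq2 size factors, total counts, upper quartile factors, a filter of at least 10 counts and thinning to the smallest library, where its FC was 1.94 to 2.0. At 5 ng/mL, VCAN and SDC1 were higher and BGN and SPOCK1 lower, against 14.8% and 12.1%. The FC of SDC1 between the lines at that dose was 2.28 (2.08–2.50). No core protein gene was a DEG between 5 and 1 ng/mL in either line, where the background was 1.61% higher and 1.79% lower in A549 and 0.492% higher and 0.412% lower in BEAS-2B cells.

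As a whole the 10 genes took a larger share of the library in treated cells. They held 0.0877% of all counts in A549 cells at 0 ng/mL, 0.177% at 1 and 0.223% at 5 ng/mL, and 0.120%, 0.242% and 0.265% in BEAS-2B cells. Their makeup differed between the lines and doses. The surface genes SDC1, SDC2, SDC4 and GPC1 held 78.6% (77.5–79.7) of the core protein counts in untreated BEAS-2B cells, 17.4% (16.7–18.1) at 1 ng/mL and 15.5% (14.8–16.2) at 5 ng/mL. SDC4 alone went from 64.4% to 7.76% at 5 ng/mL, while BGN went from 1.91% to 39.4% and SPOCK1 from 9.65% to 36.3%. In A549 cells the surface share was 28.0% (26.6–29.5), 19.2% (18.5–19.9) and 23.0% (22.3–23.7), and VCAN held 67.8%, 59.2% and 55.2% of the counts. The surface share was lower in treated than in untreated cells of both lines. A lower share is not a lower level, since it also depends on the other genes. In A549 cells SDC1, SDC4 and GPC1 were themselves higher at 5 ng/mL, while SPOCK1 went from 31 to 2364 counts. The height of the A549 share rests on VCAN, since without it the values were 87.0%, 47.1% and 51.3%. These values were also lower in treated cells.

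**Figure D4:**
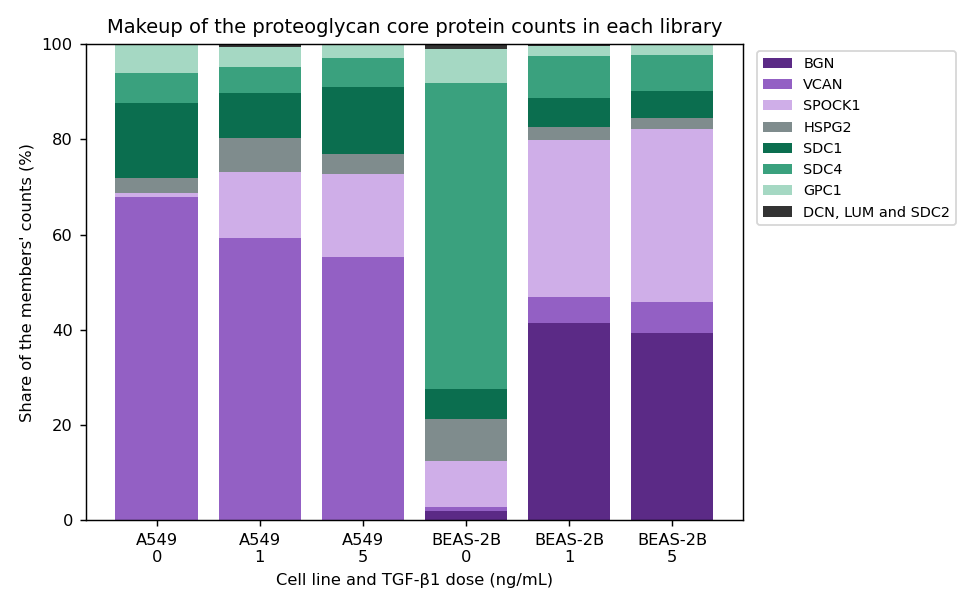
Stacked bars give the share of the summed raw counts of the 10 genes (%, from 0 to 100) that each gene held in each of the 6 libraries, labelled by cell line and dose in ng/mL. Purple marks BGN, VCAN and SPOCK1, grey HSPG2 (shared with LDLRAD2), green the surface genes SDC1, SDC4 and GPC1, and black DCN, LUM and SDC2 together. The surface genes, SDC2 included, go from 78.6% in untreated BEAS-2B cells to 15.5% at 5 ng/mL.

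The machinery that builds, sulfates and cuts proteoglycans was read from 10 lists with 126 genes. At 5 ng/mL, 14 of them rose and 10 fell in A549 cells, of 53 at the minimum level, and 8 rose and 5 fell in BEAS-2B cells, of 47. Over all genes at that level, 16.1% were higher and 17.1% lower in A549 cells, and 7.33% and 11.6% in BEAS-2B cells. The same shares are the background for the counts of each list below. In both lines the same 6 genes rose (NDST1, SULF2, CHST3, CHST11, DSE and BMP1) and the same 4 fell (SRGN, FAM20B and SDCBP among them), which is 10 of the 24 A549 and 10 of the 13 BEAS-2B calls, and 0 genes went in opposite directions. Over all entries, 600 calls were shared in the same direction, 25.4% of the 2366 A549 and 47.0% of the 1277 BEAS-2B calls, and 13 were opposite. For the list genes the shared calls were 41.7% and 76.9%, on few genes and with no test. Many list calls rest on the minimum level being reached in 1 of the 2 libraries. In A549 cells 9 of the 14 genes that rose reached it only in treated cells and 7 of the 10 that fell only in untreated cells, and in BEAS-2B cells these were 4 of 8 and 3 of 5. Such genes could be counted in 1 direction only, among them SULF2, CHST3, FAM20B and SDCBP in both lines. The counts, shared calls and medians of the lists are therefore descriptions and do not support a direction.

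Enzymes of chondroitin and dermatan sulfate, the chains of versican and biglycan, were among the genes that rose in both lines. Of 8 at the minimum level, 4 rose and 1 fell in A549 cells and 3 rose and 0 fell in BEAS-2B cells, with a median log2 FC of 0.95 and 0.58. Of those that rose, CHST3, DSE and CHPF2 in A549 cells and CHST3 and CHST11 in BEAS-2B cells reached the minimum level only when treated. CHST11, a chondroitin 4-sulfotransferase, had an FC of 3.91 (3.24–4.75) in A549 and 4.68 (3.47–6.43) in BEAS-2B cells. CHST3, a chondroitin 6-sulfotransferase, had 2.93 (2.36–3.68) and 2.84 (2.10–3.88), and DSE, the epimerase that turns chondroitin into dermatan sulfate, had 3.65 (2.79–4.82) and 2.24 (1.91–2.64). CHPF2, a polymerizing factor, rose in A549 cells (2.94, 2.37–3.66), and CSGALNACT1, which starts the chain, fell (0.305, 0.257–0.360).

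Of the heparan sulfate enzymes, 6 of 21 reached the minimum level in each line. NDST1, which places the first sulfates on heparan sulfate, had an FC of 6.68 (6.02–7.44) in A549 and 2.86 (2.73–3.0) in BEAS-2B cells, from 388 to 3312 and from 2441 to 6178 counts. Apart from NDST1, HS2ST1, a 2-O-sulfotransferase, fell in A549 cells (0.429, 0.323–0.567) and EXTL2 rose in BEAS-2B cells (2.12, 1.72–2.62). The list medians were 0.06 and 0.13 on the log2 scale, near those of all genes. SULF2, an extracellular sulfatase that trims heparan sulfate, was the only one of its 4 remodelling genes at the minimum level and had an FC of 3.27 (2.47–4.39) in A549 and 3.04 (2.14–4.38) in BEAS-2B cells. SULF2 in both lines reached the minimum level only when treated, and HS2ST1 in A549 cells only when untreated.

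Of the 7 linker enzymes, which join chains to the core protein, XYLT1, the xylosyltransferase that begins the linker, rose in A549 cells (4.12, 2.96–5.84), and the list medians were 0.27 and −0.09. FAM20B, the kinase that phosphorylates the linker xylose, fell to 0.334 (0.262–0.423) in A549 and 0.429 (0.328–0.555) in BEAS-2B cells. Of the 9 donor genes, SLC35B2, a transporter of the sulfate donor, fell from 192 to 6 counts in A549 cells at 5 ng/mL, and in BEAS-2B cells it had 78, 12 and 9 counts, below the minimum level. PAPSS2, which makes that donor, fell in A549 cells (0.436, 0.343–0.551). The donor medians were −0.13 and 0.05. In A549 cells XYLT1 reached the minimum level only when treated, and SLC35B2 and PAPSS2 only when untreated. FAM20B reached it only when untreated in both lines.

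Other core proteins were mostly at low levels, and 5 of 27 in A549 and 6 of 27 in BEAS-2B cells reached the minimum. SRGN, the intracellular granule proteoglycan serglycin, fell in both lines (0.197, 0.160–0.241 in A549 and 0.273, 0.236–0.314 in BEAS-2B cells). CSPG4 fell in BEAS-2B cells (0.440, 0.327–0.587). SRGN in A549 cells and CSPG4 in BEAS-2B cells reached the minimum level only when untreated. In A549 cells COL18A1, a basement membrane collagen with heparan sulfate, rose (2.74, 2.44–3.07) and CD44, the hyaluronan receptor, fell (0.420, 0.392–0.451). The medians were −0.15 and −0.11. The hyaluronan list had 2 of 11 genes at the minimum level in A549 cells, and both rose, TNFAIP6 with an FC of 13.7 (8.01–25.4) and HAPLN3 with 6.43 (3.98–11.0). Both reached the minimum level only in treated cells, which fixed their direction and their median of 3.16, and 0 of the 11 genes reached the minimum in BEAS-2B cells.

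Proteases that cut core proteins or matrix included 4 genes that rose and 1 that fell of 6 in A549 cells and 2 that rose of 4 in BEAS-2B cells, with medians of 1.56 and 1.04. BMP1 and ADAMTS15 in A549 cells and MMP14 in BEAS-2B cells reached the minimum level only when treated, and MMP7 in A549 cells only when untreated. BMP1, which removes the propeptide of biglycan, had an FC of 5.70 (4.57–7.19) and 2.61 (2.23–3.06). In A549 cells ADAMTS15 (9.15, 6.26–13.9) and HTRA1 (3.21, 2.79–3.72) rose and MMP7 went from 129 to 2 counts. In BEAS-2B cells MMP14 rose (3.37, 2.60–4.41). SDCBP, encoding syntenin-1, which binds the syndecan tail, was the only one of its 5 syndecan partner genes to fall in either line at 5 ng/mL, with list medians of −0.87 and −0.20. SDCBP reached the minimum level only when untreated in both lines. The list of lysosomal genes of chain breakdown had medians of 0.06 and −0.49.

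**Figure D5:**
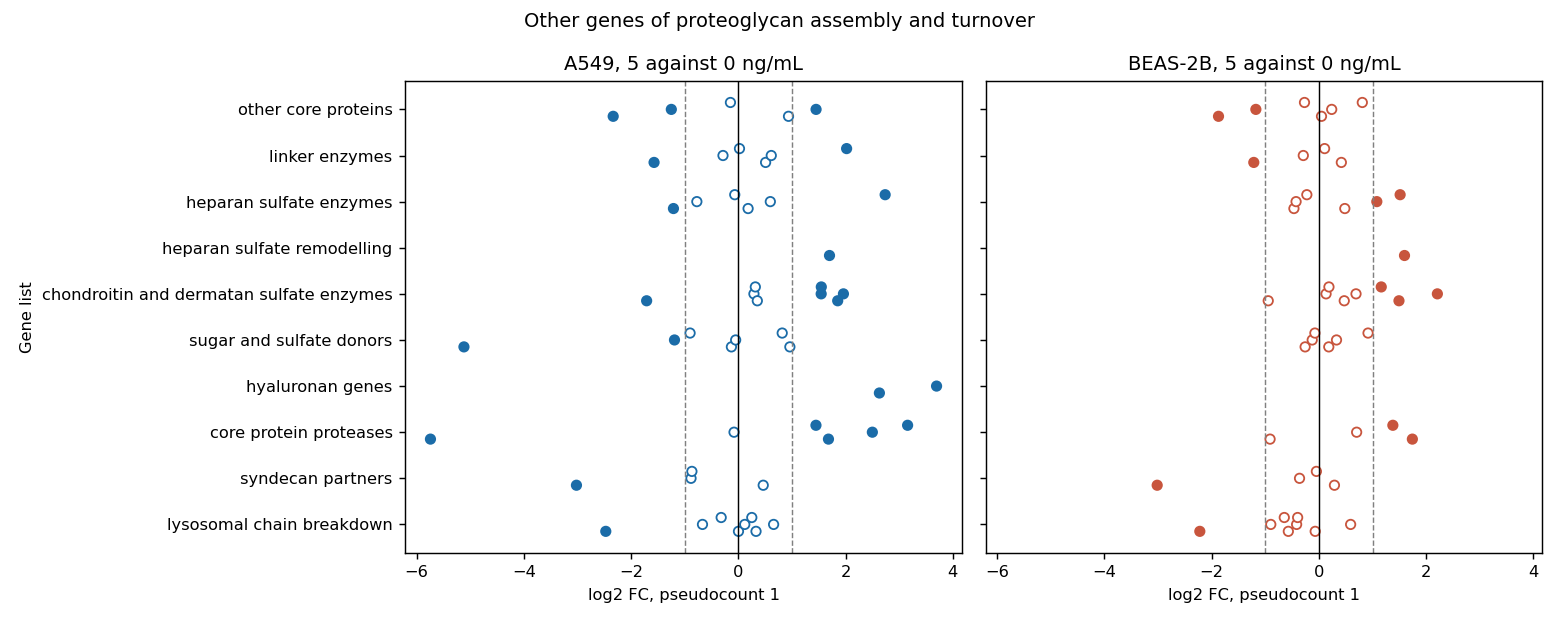
Each point is 1 gene at the minimum level in 1 of 10 lists (rows), placed by its log2 FC at 5 against 0 ng/mL in A549 (left, blue) and BEAS-2B cells (right, red), with small vertical offsets for legibility. Filled points are DEGs, the solid line marks 0 and dashed lines mark −1 and 1. Of the chondroitin and dermatan sulfate enzymes, 4 and 3 filled points lie to the right of the upper dashed line.

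For each of the 7 genes at the minimum level, the 3 entries with the most similar pattern over the 6 libraries were sought among 8152 entries by the root mean square difference of their centered ND values. SPOCK1 was most like KANK4 (0.39), MMP2 (0.40) and TAGLN (0.43). BGN had no close match, the nearest being APCDD1L (1.34), KRT17 (1.45) and PDPN (1.62). VCAN was nearest to ADAMTS10 (0.39), KBTBD11 (0.54) and CHMP4C (0.56), and SDC4 to ACBD7 (0.26), ARFRP1 (0.27) and GXYLT2 (0.28). GPC1 was nearest to MVK (0.08), PI4KB (0.10) and GINS1 (0.10), and SDC1 to BLOC1S2 (0.14), USP27X (0.16) and KIF3C (0.18). For HSPG2 the nearest entry was its overlapping gene LDLRAD2 (0.02), then CD70 (0.13) and RLTPR (0.24). With only 6 libraries these are descriptions of likeness, and a gene with a small range, such as GPC1, has many near neighbors.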

How the data were processed

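RNA libraries of A549 and BEAS-2B cells, 1 for each of the 6 conditions, were sequenced by 3′-mRNA quantification. The values the authors deposited are raw counts of reads per gene symbol, without normalization. The submitters' processing notes name Bowtie2, bedtools and the build hg19, and the study names ExDEGA for quantification. Versions and the strand setting are not given in the sources used here. TMM scaling (edgeR 4.0.16, run under R 4.3.3) used every entry, and normalized counts were set to the mean effective library size. Ratios carry exact 95% Clopper-Pearson intervals, and ratios of ratios exact conditional intervals. For a ratio against a count of 0, 3 counts were set in its place, which is not an exact bound. P-values come only from an edgeR quasi-likelihood fit of dose with cell line as a block. Tables were handled in Python 3.11.15 with pandas 2.3.3, intervals computed with scipy 1.17.1 and figures drawn with matplotlib 3.10.9. On simulated data with known ratios the calculations were tested first.

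The genes and lists were chosen with earlier results of these data known. All 10 genes are named. Of each list, up to 4 DEGs with the largest FC per line are named. Values of 1 list gene are not reported here. For each gene at the minimum level, the 3 most similar entries are named. Positions come from GENCODE release 29 (GRCh38), which is not the build of the counts, so they describe genes and not counted intervals. All 10 symbols were matched there. Of the 24462 symbols, 286 have more than 1 entry, but none of the 10. The alternatives covered other scalings, filters, pseudocounts, thinning to the smallest library and other FC and ND limits.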

Additional observations from a re-analysis of the deposited data

Results flagged for a closer look

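SDC4, HSPG2 and GPC1 had responses of opposite direction in the 2 cell lines at both doses, with counting intervals that held 1 in neither line. The share of all entries that meet this rule was not determined, so it only describes these genes and does not set them apart. Opposite DEG calls at 5 ng/mL, a narrower rule that only SDC4 among them meets, numbered 13 over all entries (0.549% of A549 and 1.02% of BEAS-2B calls). For SDC4 the response at 5 ng/mL in A549 cells was 9.46 times that in BEAS-2B cells (8.0–11.2), and SDC4 was a DEG in both lines at that dose. For HSPG2, whose reads cannot be told apart from those of LDLRAD2, the factor was 5.95 (4.60–7.70), and it was a DEG in A549 cells only. For GPC1 the factor was 2.09 (1.64–2.67), and it was a DEG in neither line. With 1 library per condition, the difference between the lines was not tested beyond counting error.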

How the results depend on the processing

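No core protein DEG changed direction under the scalings, filters, pseudocounts and thinning run. The number of core protein DEGs stayed within 1.5 times its value in 135 of 150 repeats, and the FC of single genes moved by more than its counting interval in 9 of 763. Genes with few counts can hardly move by this rule, because their intervals are wide. The moves included, under total counts, VCAN and SDC1 in A549 cells and SDC4 in BEAS-2B cells at both doses. SPOCK1 between the lines at 5 ng/mL moved there too. With total counts as scaling, the median log2 FC over all genes at 5 ng/mL shifted from 0.11 to −0.14 in A549 and from 0.03 to −0.12 in BEAS-2B cells, and the share of higher calls went from 48.4% to 33.8% and from 38.7% to 26.9%. Without a minimum level, the count was 5 for A549 at 1 ng/mL, 2 (both lower) for A549 between 5 and 1 ng/mL, 3 for BEAS-2B between 5 and 1 ng/mL and 8 between the lines at 1 ng/mL. With the minimum in both libraries it was 3 for BEAS-2B at 5 ng/mL, 1 for A549 at 1 ng/mL, 3 for BEAS-2B at 1 ng/mL and 2 between untreated lines, where it was also 2 with log2(CPM + 1) as the ND value. With an FC of at least 1.5 it was 5 for A549 at 1 ng/mL and 2 (both higher) between its doses. With an FC of at least 3 it was 2 for A549 at 5 ng/mL, 3 between the lines at 1 ng/mL and 2 between them at 5 ng/mL. Fewer or more genes passed by construction of these limits. Leaving out HSPG2, an alternative chosen after seeing the data, gave 1 for A549 at 1 ng/mL. The surface share without VCAN was 87.0%, 47.1% and 51.3% in A549 cells and 18.4% and 16.5% in treated BEAS-2B cells. With cell line as a block in edgeR, also chosen after seeing the data, 3 core protein genes passed at 5 ng/mL and 2 at 1 ng/mL, against 3 and 1 that were DEGs in both lines. The sets differed, since BGN passed in edgeR at both doses but was a DEG in BEAS-2B cells only. VCAN was a DEG in both lines at 5 ng/mL but missed the edgeR threshold. Within a line no paired analysis was possible because each condition has 1 library. Below a normalized count of 127, which is 101 to 185 raw counts, depth limits what can be read, which concerns DCN, LUM and SDC2 and, in A549 cells, BGN.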
